A study of Mus musculus with 10 samples.

Results

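Effector Treg genes are genes that regulatory T (Treg) cells express at higher levels once they have been activated or have settled in tissues. The 10 genes described here, Klrg1, Il1rl1, Gzmb, Il10, Ebi3, Fgl2, S100a4, S100a6, Lgals1 and Cd44, were listed by name, with no threshold on a value but with earlier results of these data known. They are 10 of the 55809 gene rows of the count files. All 10 had a mean count of at least 10 over the 10 libraries and were tested among 16363 genes.

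Bulk RNA-seq was performed on polyA RNA of Treg cells from the spleen and lymph nodes of Foxp3-AID mice, whose own Foxp3 gene carries an auxin-inducible degron (AID) in frame, so that Foxp3 is made as a fusion protein. The allele also carries the ZsGreen reporter and Cre, so that Cre is made in cells that express Foxp3. The 6 R26-TIR1(F74G) libraries came from mice with TIR1(F74G), a plant E3 ligase subunit in mutant form, placed at ROSA26 together with mCherry behind a loxP-flanked STOP cassette. The 4 R26-WT libraries came from mice with an unmodified ROSA26 locus and had no TIR1. All mice in both groups carried the degron allele and received 5-ph-IAA, an auxin analog, for 14 days. The analog links TIR1(F74G) to the degron and thereby marks the fusion protein for degradation, so the fusion protein can be degraded in the R26-TIR1(F74G) group and is kept in the R26-WT group. Foxp3 protein itself is not among the values used here. Each library is labelled as 1 mouse. The file headers name the mice as male, and age is not given in the labels. The general sorting scheme of the study took ZsGreen+ CD4 T cells, for R26-TIR1(F74G) mice also mCherry+, but is not stated for these libraries in particular. If it was used here, gate and genotype differ together and cannot be told apart.

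Resting Treg cells recirculate through lymphoid organs, whereas effector Treg cells have met antigen and inflammatory cytokines and carry surface receptors, secreted mediators and cytotoxic proteins used in suppression and tissue repair. Klrg1 marks terminally differentiated effector lymphocytes. ST2, the product of Il1rl1, lets tissue Treg cells respond to the alarmin IL-33, and IL-10 and the Ebi3-containing cytokines restrain other immune cells.

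Libraries held from 24158699 to 54795718 counted read pairs. Defining Treg genes were present in every library, with at least 4535 counts of Foxp3, 15603 of Cd4 and 25107 of Cd3e. Some markers of other cells were absent and others were not. Ms4a1 (B cells) had at most 4 counts and Cd14 (myeloid cells), Ncr1 (NK cells) and Mcpt8 (basophils) had none, but other genes of the same lists were present, with 370 to 1341 raw counts a library of Cd79b, 756 to 2226 of Cd8b1, 230 to 881 of Nkg7, 81 to 393 of Eomes, 41 to 116 of Cd68 and 64 to 194 of Cpa3. Of the 10 libraries, R26-TIR1(F74G) replicate 9 stood apart in the effector genes. It had the highest normalized count (the count divided by the DESeq2 size factor of its library) of all 10 libraries for 7 of the 10 genes, against 10.8% of all tested genes. The values of the 10 genes are therefore given with and without this library.

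Promoter sequence is shown first for the 3 genes whose level in replicate 9 was furthest above the R26-WT mean, S100a6, S100a4 and Gzmb, a choice made after their values were seen. Another window is shown because it is the one window of an effector Treg gene that holds the forkhead motif searched, and Foxp3 is a forkhead factor. Each is the 250 bases before a transcription start in the RefSeq promoter table (build GRCm38.p6), read 5′ to 3′ on the strand of the gene. Each was found once in GRCm39, whose coordinates are given. Capitals mark a motif found on either strand.
S100a6 (plus strand, chr3:90519951-90520200): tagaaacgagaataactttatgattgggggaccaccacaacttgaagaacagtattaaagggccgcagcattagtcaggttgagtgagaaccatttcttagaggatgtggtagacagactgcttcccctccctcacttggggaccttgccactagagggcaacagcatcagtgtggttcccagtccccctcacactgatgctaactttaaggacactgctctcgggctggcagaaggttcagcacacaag
S100a4 (plus strand, chr3:90510827-90511076): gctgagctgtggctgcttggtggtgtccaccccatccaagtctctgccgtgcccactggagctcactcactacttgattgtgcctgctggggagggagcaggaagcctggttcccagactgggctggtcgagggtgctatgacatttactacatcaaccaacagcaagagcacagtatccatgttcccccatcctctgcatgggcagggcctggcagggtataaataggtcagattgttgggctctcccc
Gzmb (minus strand, chr14:56499792-56500041): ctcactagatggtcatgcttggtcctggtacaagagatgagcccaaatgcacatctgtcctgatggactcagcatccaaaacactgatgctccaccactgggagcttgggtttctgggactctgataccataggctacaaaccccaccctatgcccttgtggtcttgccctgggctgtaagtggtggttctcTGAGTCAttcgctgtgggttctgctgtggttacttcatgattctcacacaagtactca
Il1rl1, start 10059 bases downstream of the annotated gene start (plus strand, chr1:40478539-40478788): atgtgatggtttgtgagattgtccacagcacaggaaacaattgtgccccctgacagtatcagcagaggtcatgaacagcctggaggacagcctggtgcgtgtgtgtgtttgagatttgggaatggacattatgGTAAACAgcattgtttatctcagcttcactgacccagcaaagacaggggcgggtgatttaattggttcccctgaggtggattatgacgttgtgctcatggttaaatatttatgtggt

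The table held 8 windows of 7 of the 10 genes. Klrg1, Il10 and Lgals1 were not matched in it. Of the motifs searched, TGTTTAC stood for forkhead factors, TGANTCA for AP-1, and GAAA, any 2 bases and GAAA for IRF factors, with no overlap between them in these windows. TGTTTAC was found in the downstream Il1rl1 window alone, TGANTCA in the Gzmb and Fgl2 windows, and the IRF motif in none of the 8. Among all 32851 windows of the table, 3.17% held TGTTTAC, 6.75% TGANTCA and 2.98% the IRF motif. The windows of S100a4 and S100a6, neighbouring genes of the S100 cluster on chromosome 3 whose annotated bodies lie 6836 bases apart, held none of these motifs. Il1rl1 is known to be transcribed from alternative promoters, and the counts, taken per gene, do not separate them.

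The comparison asks whether the effector genes differ between Treg cells that can degrade Foxp3 and those that keep it. None of the 10 genes was called by DESeq2 at an adjusted p under 0.05 (0 higher, 0 lower), where 1.74% of all tested genes were called. The edgeR quasi-likelihood test also called 0 of the 10, against 0.373% of all genes. At an unadjusted p under 0.05 each tool passed 1 of the 10, S100a6, and at that level DESeq2 passed 6.86% of all genes and edgeR 6.21%. The groups overlapped for all 10 genes, whereas they did not overlap for 2.37% of all tested genes. By point estimate R26-TIR1(F74G) was above R26-WT for 8 genes and below it for 2, with a median log2 fold change of 0.19 against 0.00063 over all tested genes. Without replicate 9, 7 genes were above and 3 below, with a median of 0.12 against 0.0056. In bulk RNA, a different share of effector cells and a different RNA level per cell cannot be told apart. For other experiments the study chose heterozygous females, to avoid potential effects of mild inflammation in hemizygous males once Foxp3 is degraded. The mice here are named as male, so changes within the cell and changes in its surroundings cannot be told apart either.

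**Figure D1:**
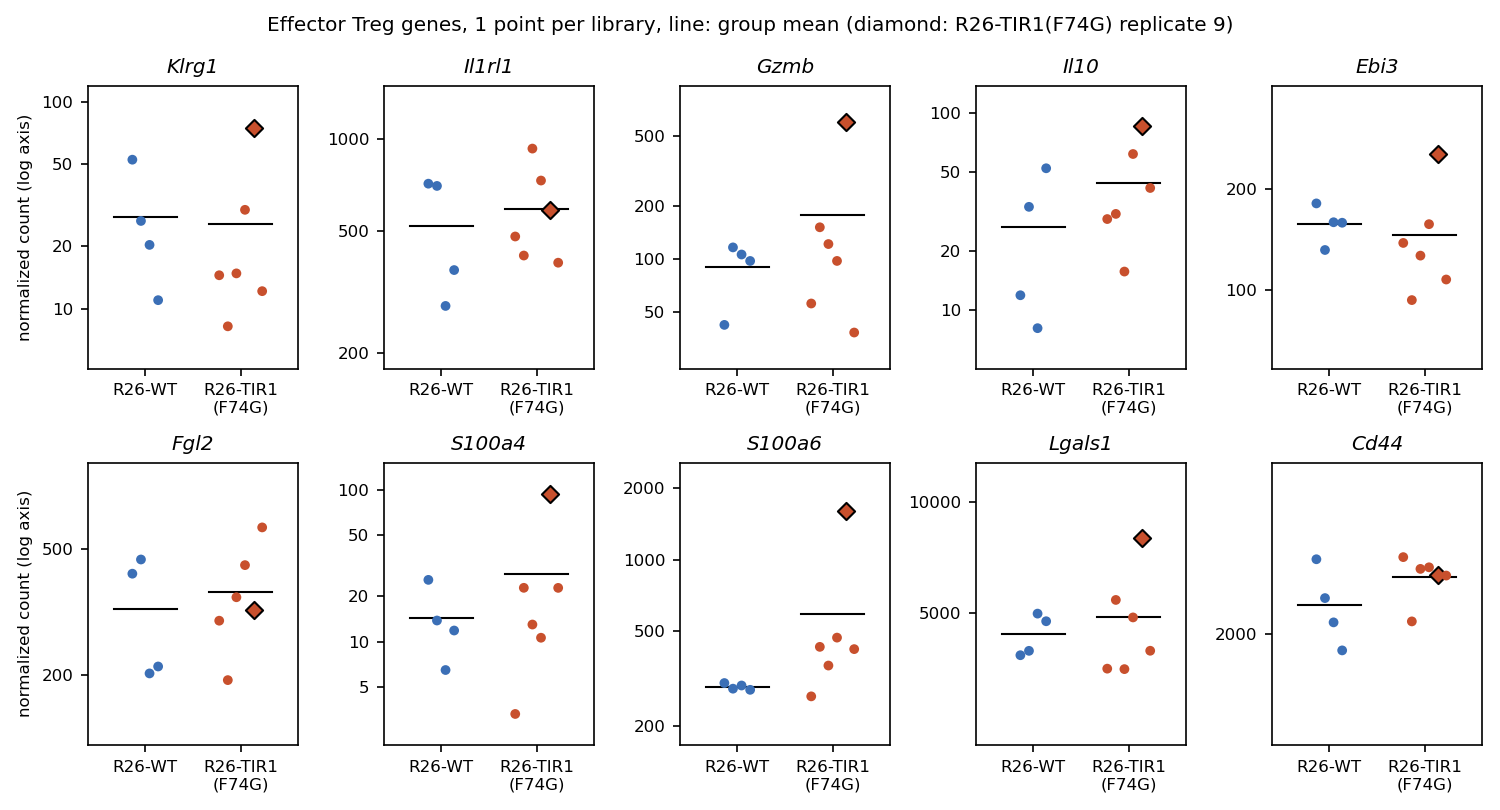
Normalized counts (log axis) of the 10 effector Treg genes, 1 point per library, in 4 R26-WT (blue) and 6 R26-TIR1(F74G) libraries (orange), with a line at each group mean and a diamond for replicate 9. The groups overlap in every panel, and the diamond is the highest point for 7 genes, furthest from the rest for Gzmb, S100a4 and S100a6.

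The surface receptors are described first, and their points fill the first panels and the last panel of the plot of normalized counts. Klrg1, an inhibitory receptor that binds cadherins (chromosome 6, 122247555 to 122259841, minus strand, GRCm39, as for all gene positions below), had 52.6, 26.6, 20.3 and 10.99 normalized counts in R26-WT replicates 1 to 4. In R26-TIR1(F74G) it ran from 8.22 through a median of 14.7 to 74.6 in replicate 9. The R26-TIR1(F74G) values lay on both sides of the R26-WT range, with 1 library above it and 1 below. Klrg1 was scarce, with 8 to 69 raw counts a library. The group means were 27.6 ± 17.8 (SD, n = 4) and 25.7 ± 25.1 (SD, n = 6), a difference of −0.11 ± 0.61 on the log2 scale (SE, adjusted p 0.99996 by DESeq2). Its 95% interval ran from −1.31 to 1.09. Without replicate 9 the log2 fold change was −0.83 (SE 0.51, DESeq2 adjusted p 0.894), and without R26-WT replicate 1, the highest library of that group, it was 0.41.

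Il1rl1 encodes ST2, the IL-33 receptor (chromosome 1, 40468730 to 40504575, plus strand). R26-WT replicates 1 to 4 had 713, 702, 285 and 373 normalized counts. Across R26-TIR1(F74G) it ran from 394 through a median of 533 to 929 in replicate 7. R26-WT replicates 1 and 2 were well above 3 and 4, and 2 of the 6 R26-TIR1(F74G) libraries lay above all of them. The log2 fold change of 0.19 ± 0.31 (SE, 95% interval −0.42 to 0.79) was within the spread between replicates. Replicate 9, at 586, was close to the middle of its group, and the value without it was again 0.19, whereas without R26-WT replicate 3 it was −0.016. Il1rap, the shared co-receptor of the IL-1 family, averaged 872 ± 330 (SD, n = 4) and 930 ± 285 (SD, n = 6) normalized counts, R26-WT first. Il33, the ligand, had a count of 0 in every library.

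Cd44, the hyaluronan receptor that also serves as an activation marker of T cells (chromosome 2, 102641486 to 102732010, minus strand), was the steadiest of the 10 genes in the sense that its standard error was the smallest. R26-WT replicates 1 to 4 had 2903, 2394, 2122 and 1846 normalized counts. R26-TIR1(F74G) ran from 2132 in replicate 6 through a median of 2724 to 2934, and 5 of the 6 libraries lay above the R26-WT mean. The log2 fold change was 0.20 (SE 0.15, 95% interval −0.09 to 0.49, DESeq2 adjusted p 0.99996), and 0.20 without replicate 9. It depended more on the R26-WT libraries, at 0.33 without R26-WT replicate 1 and 0.11 without R26-WT replicate 4. At this standard error an estimated log2 fold change of 0.50 would have passed the threshold of the whole comparison. Elsewhere in the study CD44 protein served to gate resting and activated Treg cells, and whether it did so for these libraries is not given in the sources used here.

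Of the secreted mediators, Il10, an anti-inflammatory cytokine (chromosome 1, 130947582 to 130952711, plus strand), had 11.9, 33.5, 8.14 and 52.4 normalized counts in R26-WT replicates 1 to 4. The 6 R26-TIR1(F74G) libraries ran from 15.7 through a median of 36.2 to 85.4 in replicate 9, and 2 of the 6 libraries lay above all R26-WT libraries. The R26-WT values already spanned a wide range on 10 to 62 raw counts. The log2 fold change was 0.73 (SE 0.54, 95% interval −0.33 to 1.80, DESeq2 adjusted p 0.99996) and 0.43 without replicate 9. Without R26-WT replicates 1, 3 and 4 in turn it was 0.49, 0.43 and 1.31. Il10ra, which encodes the ligand-binding chain of the IL-10 receptor, had 3449 ± 1383 (SD, n = 4) and 3682 ± 998 (SD, n = 6) normalized counts, a log2 fold change of 0.09.

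Ebi3 encodes the subunit that IL-27 and IL-35 share (chromosome 17, 56259640 to 56264022, plus strand). It had 182, 132, 160 and 159 normalized counts in R26-WT replicates 1 to 4. In R26-TIR1(F74G) it ran from 93.5 through a median of 133 to 254 in replicate 9. Of the 6 libraries, 3 lay below all R26-WT libraries and 1, replicate 9, above them. The log2 fold change was −0.11 (SE 0.26, 95% interval −0.63 to 0.40) and −0.35 without replicate 9 (SE 0.20, 95% interval −0.74 to 0.035, DESeq2 adjusted p 0.805). It shrank to −0.040 without R26-WT replicate 1. Of the R26-TIR1(F74G) libraries, leaving out replicate 6 gave −0.014 and leaving out replicate 10 gave −0.037. The partner chains were not detected at a level that could be tested, with a count of 0 for Il12a in every library and at most 2 counts of Il27. Exons of an opposite-strand gene, Gm16712, cover 23.4% of the Ebi3 exon bases, and because strand was not used, read pairs from both genes there were left uncounted. Gm16712 itself had 10 to 50 counts.

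Fgl2, a fibrinogen-like protein secreted by Treg cells (chromosome 5, 21577640 to 21583372, plus strand), had 417, 462, 203 and 213 normalized counts in R26-WT replicates 1 to 4. Among R26-TIR1(F74G) libraries it ranged from 193 through a median of 336 to 583 in replicate 10. R26-WT replicates 1 and 2 were again above 3 and 4, and 4 of the 6 R26-TIR1(F74G) libraries lay between the lowest and highest of them. Between groups the log2 fold change was 0.17 (SE 0.32, 95% interval −0.45 to 0.79), and it was −0.012 without replicate 10. Fcgr2b, an inhibitory Fc receptor that binds Fgl2, had 1 count in 1 library.

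Gzmb encodes granzyme B, a serine protease that kills target cells (chromosome 14, 56496295 to 56499717, minus strand). R26-WT replicates 1 to 4 had 42.2, 116, 106 and 97.2 normalized counts. Values in R26-TIR1(F74G) started at 38.2, with a median of 109, and reached 597 in replicate 9. Replicate 9 was 6.61-fold above the R26-WT mean, and the next library of its group reached 151. The group means were 90.3 ± 33.003 (SD, n = 4) and 177 ± 210 (SD, n = 6), a difference of 0.97 ± 0.75 on the log2 scale (SE, 95% interval −0.49 to 2.43, DESeq2 adjusted p 0.99996). Without replicate 9 the R26-TIR1(F74G) mean was 92.7 ± 46.3 (SD, n = 5) and the log2 fold change 0.041. Prf1, the pore-forming partner of the granzymes, had 647 ± 51.4 and 619 ± 86.1 normalized counts, and replicate 9, at 639, did not stand out. Serpinb9, which inhibits granzyme B, had 1839 ± 214 (SD, n = 4) and 1897 ± 170 (SD, n = 6). Gzmc, another granzyme, fell from 170 ± 51.8 (SD, n = 4) to 83.4 ± 29.9 (SD, n = 6), a difference of −1.04 ± 0.30 on the log2 scale (SE, adjusted p 0.0376 by DESeq2) with no overlap between groups. Replicate 9 had the lowest Gzmc value of all libraries, 45.4. The Gzmc call was lost in the edgeR and voom tests and in 6 of 10 leave-one-out fits, those without R26-WT replicates 3 and 4 or R26-TIR1(F74G) replicates 5, 7, 9 and 10, where the adjusted p reached 0.338.

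S100a6 and S100a4 encode small calcium-binding proteins, found in motile and activated cells. S100a6 (chromosome 3, 90520189 to 90531488, plus strand) had 303, 287, 296 and 284 normalized counts in R26-WT replicates 1 to 4, a narrow range. R26-TIR1(F74G) ran from 267 in replicate 5 through a median of 426 to 1596 in replicate 9. Of the 6 libraries, 5 lay above all R26-WT libraries, at 359, 421, 430, 470 and 1596, and 1 lay below them. The group means were 293 ± 8.74 (SD, n = 4) and 591 ± 498 (SD, n = 6), a difference of 1.01 ± 0.40 on the log2 scale (SE, 95% interval 0.22 to 1.80). The difference did not pass the threshold (DESeq2 p 0.012, adjusted p 0.317 over all genes, edgeR p 0.0403, adjusted p 0.736). Without replicate 9 the mean was 390 ± 79.4 (SD, n = 5) and the log2 fold change 0.41 (SE 0.18, 95% interval 0.067 to 0.76, DESeq2 p 0.0193, adjusted p 0.433). The size of the estimate thus depended on this library, while 4 of the remaining 5 libraries were also above the R26-WT range.

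S100a4 (chromosome 3, 90511078 to 90513352, plus strand) had 25.5, 13.8, 6.51 and 11.8 normalized counts in R26-WT replicates 1 to 4. R26-TIR1(F74G) ran from 3.35 through a median of 17.8 to 94.1 in replicate 9, and the next library reached 22.6. The log2 fold change of 0.95 ± 0.71 (SE, 95% interval −0.44 to 2.34, DESeq2 adjusted p 0.99996) was 0.021 without replicate 9 (SE 0.58, DESeq2 adjusted p 0.995). The raw counts were 3 to 87 a library, and they understate the gene. The annotation places a second gene, Gm42674, over 302 of its 584 exon bases (51.7%), and read pairs shared by both were not counted. Gm42674 was left with a count of 0 in every library.

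Lgals1 encodes galectin-1, a secreted glycan-binding protein (chromosome 15, 78810925 to 78814665, plus strand). It had 3862, 3968, 4996 and 4766 normalized counts in R26-WT replicates 1 to 4. R26-TIR1(F74G) ran from 3543 through a median of 4425 to 7960 in replicate 9, with 2 libraries above and 2 below the R26-WT range. Its log2 fold change was 0.15 (SE 0.23, 95% interval −0.29 to 0.60) and −0.037 without replicate 9. Near relatives and binding partners in the S100, galectin and annexin families were examined beside these 3 genes. S100a10 had 10635 ± 1988 (SD, n = 4) and 9121 ± 2450 (SD, n = 6) normalized counts, S100a11 828 ± 96.1 and 1017 ± 469, and Anxa2, the annexin that pairs with S100a10, 1431 ± 76.9 and 2089 ± 1234. None of the 3 was called, and replicate 9 was the highest library for each, at 13411, 1927 and 4568 normalized counts. Their log2 fold changes were −0.22, 0.30 and 0.55 with replicate 9, and −0.36, 0.015 and 0.16 without it.

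**Figure D2:**
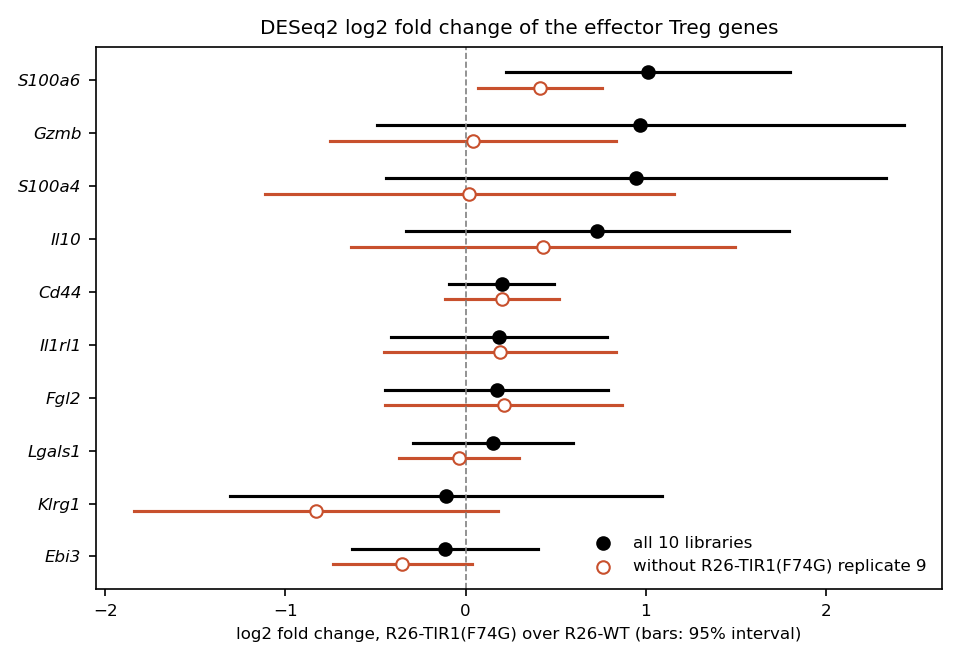
DESeq2 log2 fold change of each effector Treg gene, R26-TIR1(F74G) over R26-WT, with its 95% interval, from all 10 libraries (filled) and without R26-TIR1(F74G) replicate 9 (open). The interval of S100a6 lies above 0 in both fits, from 0.22 to 1.80 and from 0.067 to 0.76, while the points of Gzmb and S100a4 move from 0.97 and 0.95 to 0.041 and 0.021.

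The plot of log2 fold changes with and without replicate 9 shows how far each gene depended on it. Without it the log2 fold changes of Gzmb and S100a4 were close to 0, that of S100a6 was 0.41 in place of 1.01, and that of Klrg1 was −0.83 in place of −0.11. Those of Il1rl1, Cd44 and Fgl2 stayed at 0.17 to 0.21 in both fits. The smallest estimate that would have been called differed as widely between genes. At its own standard error over all 10 libraries a gene would have passed the adjusted threshold at an estimated log2 fold change of 0.50 for Cd44, 0.76 for Lgals1 and 0.88 for Ebi3. The value was 1.02 for Il1rl1, 1.05 for Fgl2 and 1.34 for S100a6, and as high as 1.81 for Il10, 2.04 for Klrg1, 2.36 for S100a4 and 2.49 for Gzmb. An estimate of 1 would therefore have passed for 3 of the 10 genes, Cd44, Lgals1 and Ebi3, and not for the other 7. These limits apply to the estimate and do not give how often a true change of that size would be called. They also include replicate 9. Without it the standard error was 0.18 in place of 0.40 for S100a6 and 0.41 in place of 0.75 for Gzmb. For Il1rl1, Fgl2 and Cd44 it was slightly larger.

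The genes also differed in level. Per length (FPKM, counts scaled to exon length and library total), Lgals1 was the highest at a mean of 119.8 over the 10 libraries, from 89.3 to 205.3, and did not overlap the next gene. Cd44 followed at 8.58 (6.27 to 10.04) and S100a6 at 7.97 (4.53 to 27.2). These 2 neighbours overlapped, although Cd44 was above S100a6 in 8 of 10 libraries. Ebi3 (3.02), Gzmb (2.29), Fgl2 (2.12) and Il1rl1 (1.87) had overlapping ranges, and Gzmb was above Fgl2 in 4 of 10 libraries. S100a4 (0.886), Il10 (0.654) and Klrg1 (0.432) were lowest and overlapped each other. The level of S100a4 is a lower bound, since it divides by all 584 exon bases while pairs over the 302 shared bases went uncounted, so its rank is uncertain. The same loss understates Ebi3, with 23.4% of its exon bases shared with another gene, and Cd44, with 3.0%. Without replicate 9 the mean of Gzmb was 1.46, below Fgl2 (2.14) and Il1rl1 (1.86), that of S100a6 was 5.84 and that of S100a4 0.567, and the order of the other genes was as before. The median FPKM of the 10 genes was 1.43 to 4.44 per library, compared with 54.2 to 65.9 for 20 genes of resting Treg cells.

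**Figure D3:**
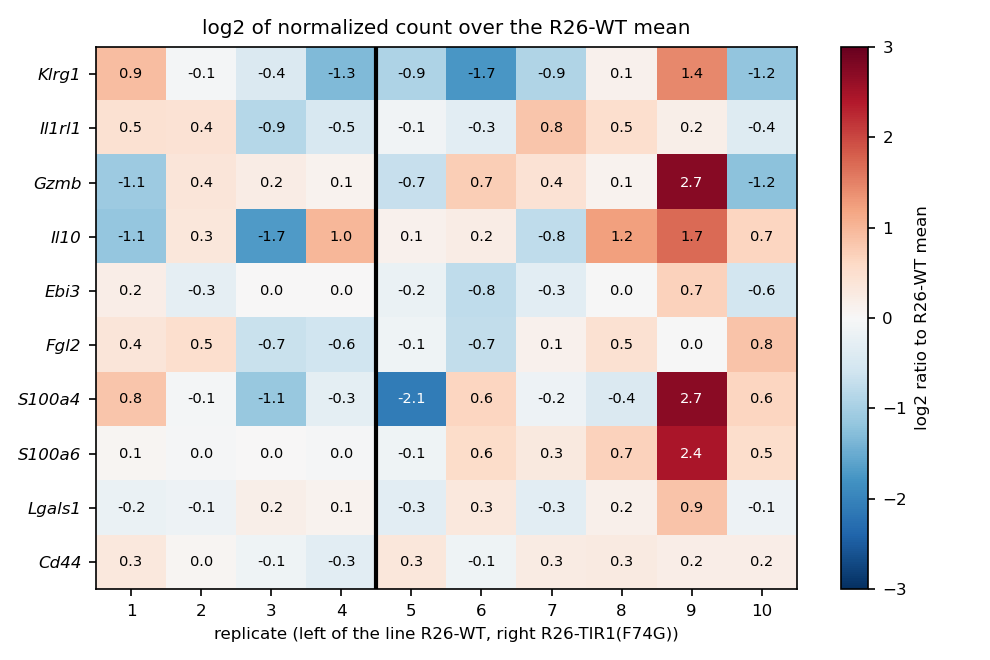
Log2 of the normalized count of each effector Treg gene (rows) in each library (columns) over the R26-WT mean of that gene, R26-WT left of the line. Replicate 9 shows 2.7 for Gzmb and S100a4 and 2.4 for S100a6, and no other library is above its R26-WT mean to that extent in any of the 10 genes.

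As the map of log2 ratios shows, replicate 9 was not high for all 10 genes. Relative to the R26-WT mean its values were 6.61-fold for Gzmb, 6.53-fold for S100a4, 5.45-fold for S100a6, 3.23-fold for Il10 and 2.702-fold for Klrg1. They were 1.81-fold for Lgals1 and 1.61-fold for Ebi3, and 1.16-fold for Cd44, 1.13-fold for Il1rl1 and 0.989-fold for Fgl2. Il1rl1 was highest in replicate 7, Fgl2 in replicate 10 and Cd44 in replicate 5. Replicate 9 was also the highest library for 29 of 59 other effector Treg genes (49.2%) and 8 of 20 S100, galectin and annexin genes (40%). It was highest for 0 of 20 resting Treg genes and lowest for 4 of them (20%), where 11.4% of all tested genes were lowest in it.

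Markers of other cells in replicate 9 were higher for some lists and not for others. Summed over 11 CD8 T, NK and innate lymphoid markers it had 2711 normalized counts, above the 1925 to 2187 of the other 5 libraries of its group and within the 2056 to 2726 of R26-WT. In that list Ncr1 and Klra8 were at 0 in every library. Nkg7, a granule protein of cytotoxic cells, was at 881 in replicate 9, against 490 to 717 in R26-WT and 310 to 510 in the other R26-TIR1(F74G) libraries, and Klrb1c, an NK receptor, at 46.5 against at most 14.8. Other genes of the list went the other way or lay inside the range. Cd8a was at 0 in replicate 9, against 7.32 to 32.6 in R26-WT and 6.16 to 21.2 in the other libraries of its group, and Klrd1 was at 6.49, near the low end of 5.92 to 24.4 and 6.16 to 14.5. Cd8b1 (1335), Eomes (296), Gzmk (9.73), Il17rb (89.8) and Kit (46.5) lay within the values of the other 5 R26-TIR1(F74G) libraries. Of the B cell markers Cd79b was at 972, above the other libraries of its group (525 to 809) and within R26-WT (661 to 1091), and Cd79a was at 208, within both ranges. Fcer2a (16.2, elsewhere at most 13.8) and Pax5 (3.24, elsewhere at most 0.868) were highest of the 10 libraries there, and Cr2 (4.33, elsewhere at least 5.13) was lowest. Blk was at 0 in all R26-TIR1(F74G) libraries and at most 5.70 in R26-WT, and Ms4a1 was at 0 in replicate 9. The 14 myeloid markers summed to 93.0, within both groups, and 4 of them were at 0 everywhere. The 6 mast cell and basophil markers summed to 146, below the other libraries of its group (153 to 203) and within R26-WT (117 to 205), with 3 at 0 everywhere. A single gene carried each of the remaining sums. Xbp1 gave 10390 of the 10394 counts of the 5 plasma cell markers, of which 2 were at 0 everywhere, and Pecam1 gave 6086 of the 6111 counts of the 11 erythroid, platelet, endothelial and stromal markers, of which 4 were at 0 everywhere. The first sum was within both groups and the second was the lowest of the 10 libraries. The part of other cells or of cell state in the values of replicate 9 was not tested.

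Other genes known from effector Treg cells gave the wider context. Of 60 listed, 59 were tested, and DESeq2 called 3 higher and 1 lower, where 1.4% and 0.336% of all tested genes were called in these directions, with a median log2 fold change of 0.09. Id2, an inhibitor of E proteins, rose from 2833 ± 221 normalized counts (SD, n = 4) to 5368 ± 1320 (SD, n = 6), a difference of 0.92 ± 0.17 on the log2 scale (SE, adjusted p 3.71e-05 by DESeq2), without overlap between groups, and was the one gene of the list that edgeR also called. Tigit, a coinhibitory receptor, rose from 42.8 ± 24.2 to 141 ± 99.5, a difference of 1.73 ± 0.45 on the log2 scale (SE, adjusted p 0.0102 by DESeq2). Ccr2, a chemokine receptor, rose from 93.8 ± 60.7 to 470 ± 336, a difference of 2.33 ± 0.67 on the log2 scale (SE, adjusted p 0.0346 by DESeq2), with 1.91 and an adjusted p of 0.113 by DESeq2 without replicate 9. Tnfrsf9, which encodes 4-1BB, fell from 7734 ± 609 to 5497 ± 502, a difference of −0.49 ± 0.11 on the log2 scale (SE, adjusted p 5.65e-04 by DESeq2), with every R26-TIR1(F74G) library below every R26-WT library. Its edgeR adjusted p was 0.0510. Without replicate 9 the log2 fold change of Id2 was 0.78 and that of Tigit 1.26, both still called. The calls of Id2 and Tnfrsf9 held in all 10 leave-one-out fits. That of Tigit was lost in 3, without R26-WT replicates 1, 3 and 4, and that of Ccr2 in 7, all but those without R26-WT replicate 2 and R26-TIR1(F74G) replicates 5 and 6, with adjusted p-values up to 0.0984 and 0.222.

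Of the transcription factors known to drive effector Treg differentiation, none of the 4 examined was called, beside 1.74% of all tested genes, so that the count of 0 says nothing particular about them. Prdm1, which encodes Blimp-1, had 363 ± 77.9 (SD, n = 4) and 514 ± 161 (SD, n = 6) normalized counts, a difference of 0.50 ± 0.23 on the log2 scale (SE, adjusted p 0.592 by DESeq2). Its highest value, 820, was in replicate 7, without which the log2 fold change was 0.32 (DESeq2 adjusted p 0.963), and replicate 9 had the lowest value of its group, 346. Batf, with a log2 fold change of 0.18 and 0.033 without replicate 9, and Gata3, with −0.12 and −0.18, were both highest of all 10 libraries in replicate 9, at 6663 and 7948 normalized counts. Irf4 had a log2 fold change of 0.22, and replicate 9, at 1154, lay inside its group.

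**Figure D4:**
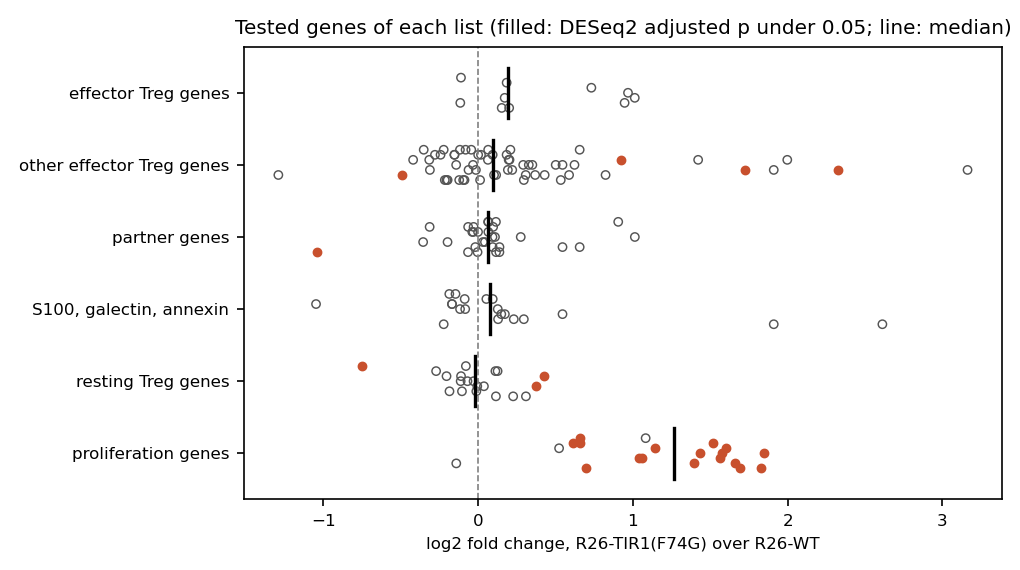
DESeq2 log2 fold change of each tested gene in 6 lists, R26-TIR1(F74G) over R26-WT, with a line at the median and filled points for an adjusted p under 0.05. The 10 effector Treg genes have no filled point and a median of 0.19, while 17 of 20 proliferation genes are filled, with a median of 1.27.

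The plot of lists sets the 10 genes beside their neighbours. Of 41 ligands, receptors, co-factors and inhibitors of the 10 gene products, 30 were tested, and 1, Gzmc, was called lower and 0 higher, beside 0.336% and 1.4% of all tested genes, with a median log2 fold change of 0.07. Cdh1, which encodes the Klrg1 ligand E-cadherin, was at 25.4 ± 14.3 (SD, n = 4) and 51.2 ± 30.9 (SD, n = 6) normalized counts and was not called. Of 29 S100, galectin and annexin genes 20 were tested and 0 were called by either tool, beside 1.74% of all tested genes by DESeq2 and 0.373% by edgeR, with 4 at an unadjusted DESeq2 p under 0.05 (6.86% of all genes) and 2 at an unadjusted edgeR p under 0.05 (6.21%). Of 20 genes of resting Treg cells, DESeq2 called 2 higher and 1 lower, beside 1.4% and 0.336% of all tested genes. Tcf7, a transcription factor of naive and memory T cells, rose by 0.43 (SE 0.12, DESeq2 adjusted p 0.0257), and Bcl2, a survival protein, by 0.37 on the log2 scale (SE 0.11, DESeq2 adjusted p 0.0431), both without overlap between groups. Ly6c1, a surface protein of resting cells, fell by 0.75 (SE 0.22, DESeq2 adjusted p 0.0399). None of these 3 was called by edgeR. Leaving out 1 library at a time, Tcf7 lost its call in 7 of 10 fits, Bcl2 in 9 and Ly6c1 in 7, for each of them including the fits without R26-WT replicates 3 and 4, with adjusted p-values up to 0.216, 0.275 and 0.388.

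Cell cycle genes moved with the genotype. DESeq2 called 17 of 20 higher and 0 lower, beside 1.4% and 0.336% of all tested genes, and edgeR called 5, beside 0.373%. The count was 9 without R26-WT replicate 4 and 11 without R26-WT replicate 3. Mki67 rose from 127 ± 69.5 normalized counts (SD, n = 4) to 409 ± 226 (SD, n = 6), a difference of 1.70 ± 0.40 on the log2 scale (SE, adjusted p 0.00253 by DESeq2), not called by edgeR or voom (adjusted p 0.176 and 0.127). Summed over the list, R26-WT libraries had 12921 to 18884 and R26-TIR1(F74G) libraries 21947 to 33186 normalized counts. Replicate 9 had the lowest sum of its group, 21947, whereas replicate 7, the highest library for Il1rl1, was the highest for 14 of the 20 genes. The part of cell division in the effector gene values was not tested. From the list of CD8 T, NK and innate lymphoid markers, Eomes, a transcription factor of CD8 T and NK cells, also moved with the genotype and did not overlap between groups. It was at 68.5 to 135 normalized counts in R26-WT and 209 to 404 in R26-TIR1(F74G), a log2 fold change of 1.47 (SE 0.23, adjusted p 4.54e-08 by DESeq2, 0.0161 by edgeR and 0.0222 by voom). The other genes of that list with counts overlapped between groups, some leaning lower and some higher. Nkg7 was at 490 to 717 in R26-WT and, apart from replicate 9 (881), at 310 to 510 in R26-TIR1(F74G). Il17rb was at 22.8 to 36.6 in R26-WT and 15.4 to 125 in R26-TIR1(F74G). The list sum overlapped too, at 2056 to 2726 in R26-WT and 1925 to 2711 in R26-TIR1(F74G). The part of other cells in the genes called between groups, Id2, Tigit and the cell cycle genes among them, was not tested.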

How the data were processed

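RNA-seq counts from 4 R26-WT and 6 R26-TIR1(F74G) libraries were used. The deposited values were raw counts of read pairs per gene name, 1 library a file, not normalized by the authors. The labels describe amplified cDNA from low RNA input and name no molecular identifiers, so intervals from counts would cover counting error only. Counting by the authors, per the file headers, used featureCounts 2.1.1 on GENCODE release M30 (GRCm39), with both mates mapped, a mapping quality of at least 30 and no strand option, and the deposited files also give each gene's exon length in bases. Pairs that overlap several genes were not counted. The labels name Bowtie2 and the study's methods STAR for alignment.

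Groups were compared with DESeq2 1.42.0 in R 4.3.3 (Wald test, two-sided, design of genotype alone, mean count of 10 or more, Benjamini-Hochberg adjusted p under 0.05 over all tested genes), as the study's methods state for bulk RNA-seq. Of 55809 gene rows, 16363 were tested, 6 of them without an adjusted p. Counts were normalized by the size factors of DESeq2, and FPKM was computed from the counts, the exon lengths and each library's total. Intervals are 95% Wald intervals. Alternatives were the edgeR 4.0.16 quasi-likelihood test, voom with quality weights (limma 3.58.1), TMM scaling, no count filter, removal of a gene length trend, 1 surrogate variable (sva 3.50.0), and leaving out each library in turn. The tests were first run on simulated counts. Libraries of 1 group were compared in 21 pairs, and chi-square divided by its degrees of freedom was 9.84 to 242, so no pair was taken as 1 library deposited again.

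The genes named are the 10 effector Treg genes, every called gene of the lists of partners, other effector genes, resting genes and S100, galectin and annexin genes, 16 close partners and regulators, Mki67, and marker genes whose values touch a result. The genes and lists were chosen with earlier results of these data known. Nothing in the labels says whether the mice were treated together, and the p-values measure only the spread between these libraries. The summed level of the B cell markers is not reported here.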

Additional observations from a re-analysis of the deposited data

Results flagged for a closer look

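Each of 108 groups of values, 4 or 6 libraries in each, was examined for a library far from the others, by the gap between the extreme library and its nearest neighbour divided by the whole range of the group (Dixon's ratio at the 95% level). They were the library totals and the values of 54 of the genes named, 23 of them marker genes of Treg or other cells, apart from groups in which all libraries were at 0. For normally distributed values chance gives about 5% of such groups, and 18 were found, 16 in R26-TIR1(F74G) and 2 in R26-WT. The 18 cannot be read as an excess over that share. The ratios were taken on untransformed normalized counts, some near 0, and some of the genes were named because of their values. The groups are not independent, since they come from the same libraries.

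Replicate 9 was the extreme library in 11 of the 18. For S100a6 the ratio was 0.847, with 1596 normalized counts where the remaining 5 libraries had 267 to 470. The ratio was 0.798 for Gzmb (597 against 38.2 to 151), 0.788 for S100a4 (94.1 against 3.35 to 22.6) and 0.671 for Klrg1 (74.6 against 8.22 to 30.1). Among the related genes it was 0.812 for Anxa2 (4568 against 1329 to 1937), 0.737 for Tigit (337 against 71.4 to 142), 0.707 for Id2 (7962 against 4337 to 5398) and 0.703 for S100a11 (1927 against 663 to 1038). Among markers of other cells it was 0.826 for Klrb1c (46.5 against 0.926 to 8.84), 0.732 for Pax5 (3.24 against 0 to 0.868) and 0.651 for Nkg7 (881 against 310 to 510).

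Cd44 was low in replicate 6, with 2132 normalized counts against 2677 to 2934 and a ratio of 0.68. Replicate 7 was the highest library for Prdm1 (820 against 346 to 515, ratio 0.644), Irf4 (2154 against 957 to 1305, ratio 0.71), Foxp3 (16059 against 6778 to 9851, ratio 0.669) and Cr2 (24.1 against 4.33 to 10.6, ratio 0.682). In R26-WT, replicate 1 was the highest library for Kit (86.8 against 34.4 to 41.4, ratio 0.866) and for Pax5 (0.796 against 0, a ratio of 1 that rests on a single read pair).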

How the results depend on the processing

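None of the 10 effector Treg genes was called under any of the 16 alternatives, and the smallest adjusted p among them was 0.141, for S100a6 without R26-TIR1(F74G) replicate 5. The number of calls elsewhere depended on the test, and the cause was not tested. Of all genes, edgeR called 61, voom 80 and the surrogate variable fit 743 (468 higher, 275 lower) in place of 284, and fits that each left out 1 library called 187 to 346, the lowest without R26-WT replicate 4. Partner genes called were 0 with edgeR, 0 with voom, 2 with the length trend removed, 2 with the surrogate variable and 0 to 2 without 1 library. Other effector Treg genes called were 1, 1 and 8 with edgeR, voom and the surrogate variable, and 2 to 5 without 1 library. Resting Treg genes called were 0 with edgeR, 0 with voom, 1 with no count filter, 7 with the surrogate variable and 0 to 3 without 1 library. For S100, galectin and annexin genes the surrogate variable gave 1, and for proliferation genes edgeR gave 5, voom 7 and leaving out 1 library 9 to 16.

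Leaving out 1 library turned the sign of small estimates, with log2 fold changes from −0.83 to 0.41 for Klrg1, −0.016 to 0.38 for Il1rl1, −0.012 to 0.39 for Fgl2, −0.037 to 0.23 for Lgals1, −0.059 to 0.28 for Il1rap, −0.031 to 0.097 for Serpinb9, −0.091 to 0.31 for Il10ra and −0.0042 to 0.55 for Irf4. For Klrg1 the single values that turned were 0.41, 0.012, 0.076, 0.011 and 0.040. Voom gave −0.015 for Lgals1, and the surrogate variable −0.057 for Il1rap and −0.015 for Il10ra. No paired analysis was possible because no number occurs in both groups. Raw counts were lowest for Klrg1, S100a4 and Il10, under 100 in every library, which limits their precision.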
